A study of Homo sapiens with 14 samples.

Results

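The peaks of heat shock factor 1 (HSF1) and heat shock factor 2 (HSF2) in mitotic K562 cells heated for 30 min at 42 °C were compared site by site. All 4982 peaks of the HSF1 list and all 8270 peaks of the HSF2 list were taken, with no filter on fold or p, giving 13252 of the 117699 peaks in the 12 lists of the series. By ChIP-seq, the sequencing of DNA recovered with an antibody, the series mapped HSF1, HSF2 and a non-specific immunoglobulin (IgG) in cycling and mitosis-arrested cells, heated or kept at 37 °C. K562 is a human erythroleukemia cell line, and the agent used for the arrest is not given in the sources used here. Each library was made from 10 pooled immunoprecipitations, so each antibody and condition had 1 library. No difference below could therefore be tested against replicates, and the 95% intervals cover counting error only. The 3 heated mitotic lists (HSF1, HSF2, IgG) shared 1 mitotic input library, labelled heat-treated, as their control. IgG shows where chromatin was recovered without a specific antibody, and any HSF peak that overlapped an IgG peak of heated mitotic cells by 1 bp was set apart.

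In mammals HSF1 drives the transcription of heat shock genes: heat makes it trimerise and bind heat shock elements, arrays of inverted nGAAn units in promoters and enhancers. HSF2 binds the same elements, can form mixed trimers with HSF1, and is better known for roles in development. Mitotic chromosomes are condensed and largely silent in transcription, and many factors leave them, so a comparison of both factors there asks whether the pair still meets at the same elements.

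The promoters of HSPA8, HSP90AA1 and DNAJB6 are shown because all 3 genes had an HSF1 and an HSF2 peak in heated mitotic cells and hold an exact element in the 250 bases before their start. Sequences are from RefSeq on GRCh38.p14, 5′ to 3′ on the strand of the gene. Capitals mark exact matches to an element of 3 alternating units with 2 bases of any kind between them, GAA then TTC then GAA or, as its reverse complement, TTC then GAA then TTC, so that both strands were searched. HSPA8 encodes the constitutive HSC70 chaperone (chr11:123062137-123062386, minus strand), HSP90AA1 the inducible cytosolic HSP90 (chr14:102087045-102087294, minus strand) and DNAJB6 a J-domain co-chaperone of HSP70 (chr7:157336754-157337003, plus strand).
HSPA8: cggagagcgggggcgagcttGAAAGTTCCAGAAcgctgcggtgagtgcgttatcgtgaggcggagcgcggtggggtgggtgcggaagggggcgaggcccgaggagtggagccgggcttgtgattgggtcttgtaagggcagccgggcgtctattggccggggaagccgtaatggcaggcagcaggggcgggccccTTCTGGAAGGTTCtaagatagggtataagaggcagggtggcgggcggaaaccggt
HSP90AA1: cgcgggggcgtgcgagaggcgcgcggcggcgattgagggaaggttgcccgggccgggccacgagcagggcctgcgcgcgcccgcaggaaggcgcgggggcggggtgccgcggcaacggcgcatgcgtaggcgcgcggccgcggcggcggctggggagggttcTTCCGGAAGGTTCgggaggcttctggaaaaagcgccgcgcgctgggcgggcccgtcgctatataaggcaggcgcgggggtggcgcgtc
DNAJB6: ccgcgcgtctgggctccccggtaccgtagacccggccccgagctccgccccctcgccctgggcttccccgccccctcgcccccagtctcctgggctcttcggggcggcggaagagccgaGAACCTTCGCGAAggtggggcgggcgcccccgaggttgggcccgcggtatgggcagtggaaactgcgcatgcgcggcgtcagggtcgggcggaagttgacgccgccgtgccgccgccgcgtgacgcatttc
The matches in HSPA8 began 230 and 55 bases before the start, the match in HSP90AA1 88 bases and the match in DNAJB6 131 bases before it. Such a match was held by 155 of 35116 promoters in the table (0.441%). Among the 22 genes recognised at 20 peak sites below, which leave out HSPB1, BCR and ABL1, 20 were in the table and 6 held a match, the other 3 being CHORDC1, HSPD1 and SERPINH1. The first count is per promoter and the second per gene, where 5 genes had several starts. The genes were picked by recognition and include KMT2A, which had no HSF1 peak, so the 2 counts are not a test of enrichment. The peaks lie on hg19 and these sequences on GRCh38.p14, so the elements were not placed within the peaks, and the letters under the peaks were not analysed here.

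The HSF1 and HSF2 lists met at few sites. Of 2504 HSF1 peaks free of IgG, 250 overlapped an HSF2 peak (9.98%, 95% Wilson interval 8.87% to 11.2%) and 2254 stood alone. Of 5272 HSF2 peaks free of IgG, 165 overlapped an HSF1 peak (3.13%, 2.69% to 3.64%) and 5107 stood alone. Overlap was more frequent among the peaks set apart: 1194 of 2478 HSF1 peaks with IgG had an HSF2 partner (48.2%, 46.2% to 50.2%), and 823 of 2998 HSF2 peaks with IgG had an HSF1 partner (27.5%, 25.9% to 29.1%). Over all peaks, 1444 HSF1 peaks (29.0%) overlapped 988 HSF2 peaks (11.9%), and most of this overlap lay where IgG also had a peak. In heated cycling cells 30.5% of IgG-free HSF1 peaks and 45.7% of IgG-free HSF2 peaks had a partner, and over all peaks 32.6% and 48.4%. In non-treated mitotic cells the IgG-free shares were 36.0% and 5.09%, in lists of 4534 and 19866 peaks, and over all peaks 40.3% and 7.12%. The IgG lists held 41184 peaks in heated mitotic, 4377 in heated cycling and 2373 in non-treated mitotic cells, so the IgG-free shares rest on unlike filters. Over all peaks the HSF1 shares of heated mitotic and heated cycling cells were close.

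**Figure D1:**
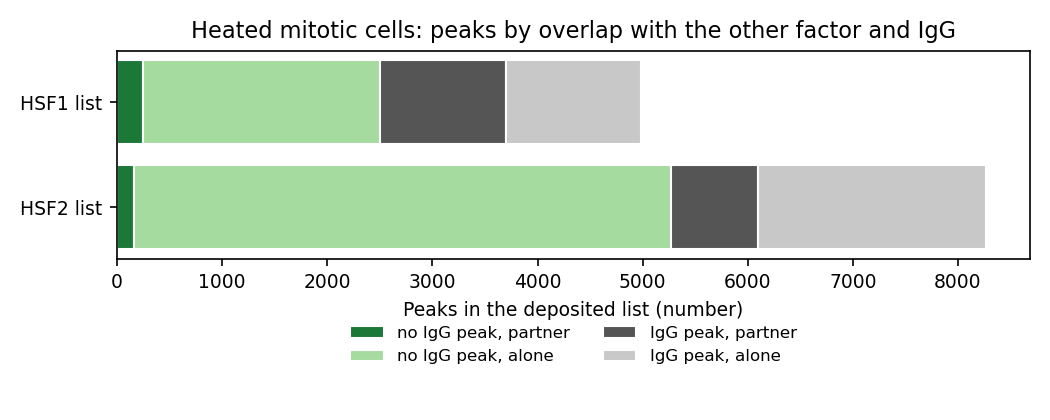
Number of peaks in the HSF1 list (4982) and the HSF2 list (8270) of heated mitotic cells, split by overlap of at least 1 bp with the other factor ("partner") and with the IgG list. The dark green segments, peaks with a partner and no IgG peak, hold 250 HSF1 and 165 HSF2 peaks.

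The IgG list of heated mitotic cells was long, with 41184 peaks over 30.9 Mb, against 4377 peaks in heated cycling cells. It set apart 49.7% of the HSF1 peaks (48.4% to 51.1%) and 36.3% of the HSF2 peaks (35.2% to 37.3%), where the cycling IgG list touched 11.7% and 12.1%. At the peaks set apart, HSF1 reached a median of 0.549 times the IgG level, in tags per 1000000 kept tags (CPM), the tags of a peak against those that the peak caller kept for the library. HSF1 was at least 2-fold above IgG at 101 of these 2478 peaks (4.08%) and at least 2-fold below it at 1168 (47.1%). HSF2 reached a median of 0.817 times IgG, was at least 2-fold above it at 138 of 2998 peaks (4.60%) and at least 2-fold below it at 575 (19.2%). IgG peaks differed in width from the HSF peaks, and per kb of peak the medians were 1.20 for HSF1 and 0.769 for HSF2. The rule is broad: by summits within 100 bp of an IgG summit only 12.4% of HSF1 peaks would be set apart.

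Each HSF1 peak was paired with the overlapping HSF2 peak of nearest summit, the base with most tags. This gave 186 pairs in which neither peak touched IgG, on 162 HSF2 peaks, and 1258 pairs with IgG. The IgG-free pairs had a median summit distance of 131 bp (109 to 221 bp), and 77 of them lay within 100 bp (41.4%, 34.6% to 48.6%). Pairs with IgG had a median of 595 bp (530 to 660 bp), with 258 within 100 bp (20.5%). Both were wider than the 1727 IgG-free pairs of heated cycling cells, whose median was 37 bp with 82.7% within 100 bp. Peak width moved with this distance, in part by rule, since overlapping peaks have summits far apart only where a peak is long. In the 26 IgG-free pairs with summits over 1000 bp apart the HSF2 peak had a median length of 15772 bp. In the 25 pairs within 25 bp it was 890.0 bp. Of those 26 pairs, 22 lay on HSF2 peaks over 5 kb. Such peaks were counted once for each HSF1 peak joined to them, so single HSF2 peaks enter this median several times.

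**Figure D2:**
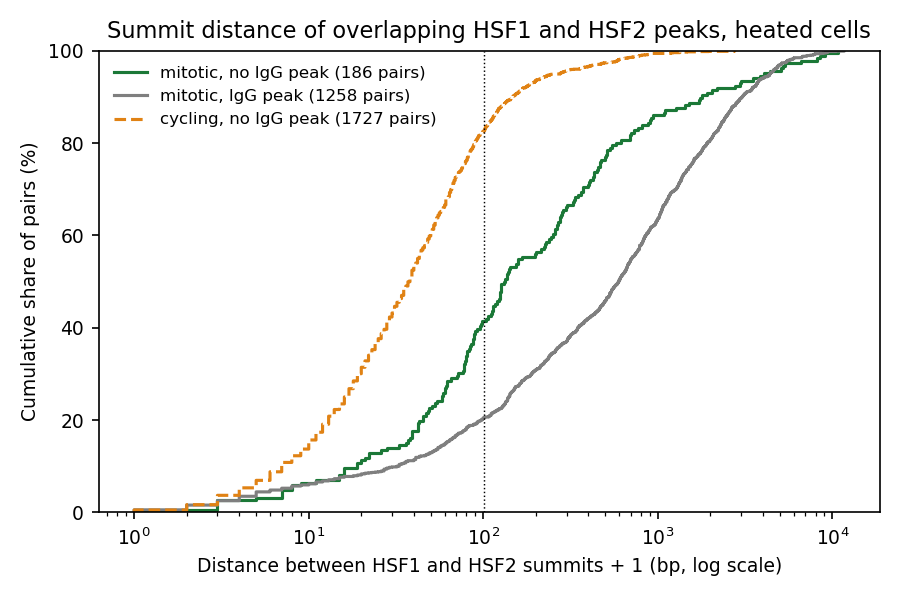
Cumulative share of pairs (%) against the distance between HSF1 and HSF2 summits plus 1 bp (log scale) in heated mitotic and heated cycling cells; the dotted line marks a distance of 100 bp. The mitotic IgG-free curve reaches 41.4% at that line, the mitotic pairs with IgG 20.5% and the cycling IgG-free pairs 82.7%.

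In the IgG-free pairs HSF1 tended to be the higher of the pair in CPM. Each factor had its own antibody and 1 library, so factor and antibody cannot be told apart in any ratio here. The ratios compare recovered tags and do not rank the occupancy of the factors. Median levels were 1.69 CPM for HSF1 and 1.10 CPM for HSF2, and the median ratio of HSF1 to HSF2 was 1.62 (1.31 to 1.83). HSF1 was at least 2-fold higher in 74 of 186 pairs (39.8%), HSF2 at least 2-fold higher in 31 (16.7%), and 81 lay between. Long peaks carried most of the HSF2 count: 23 of the 31 came from 26 pairs on 6 HSF2 peaks over 5 kb, whose median ratio was 0.0920. In the other 160 pairs HSF2 was at least 2-fold higher in 8 (5.00%) and the median ratio was 1.83. Per kb of peak the median over all 186 pairs was 1.98. In pairs with IgG the median ratio was 0.433, with 50 pairs at least 2-fold higher in HSF1 (3.97%) and 677 in HSF2 (53.8%). The HSF2 peaks of these pairs were far longer, with a median of 3186 bp against 729 bp for HSF1. Per kb of peak the median ratio was 1.55, the other direction. Dividing by length raises the ratio wherever the HSF2 peak is the longer, and lengths were called separately in each list. In IgG-free pairs of non-treated mitotic cells the same step took the median from 0.631 to 1.28. Per kb values are thus not free of a bias toward the list of shorter peaks. Among the 77 IgG-free pairs with close summits HSF1 was higher in 64, at least 2-fold higher in 45 and at least 2-fold lower in 2. The exact interval of the ratio lay above 1 in 37 of these 77 and below 1 in 2.

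The 2 lists began at different levels, and this bears directly on the ratios. The fewest tags in a peak were 9 for HSF1, or 1.22 CPM of 7385467 kept tags, and 16 for HSF2, or 0.565 CPM of 28299989 kept tags. A pair with both peaks at these minima has a ratio of 2.16. Only 82 of the 186 IgG-free pairs had an HSF2 peak of at least 1.22 CPM, where a ratio of 1 was open to both factors. In these 82 the direction turned: the median ratio was 0.690 (0.544 to 0.891), with 23 pairs higher in HSF1. They include all 26 pairs on the long HSF2 peaks, without which the median of the other 56 was 0.908, with 22 higher in HSF1. Per kb of peak the median of the 82 was 1.68, so the direction depends on whether width is allowed for. Of the close pairs 24 met this limit, with a median ratio of 0.962, 11 higher in HSF1, 6 at least 2-fold higher and 2 at least 2-fold lower. The same minima touch the lone peaks: 4800 of the 5107 lone IgG-free HSF2 peaks (94.0%) and 105 of the 165 with a partner (63.6%) were below 1.22 CPM, under which the HSF1 list holds no peak.

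**Figure D3:**
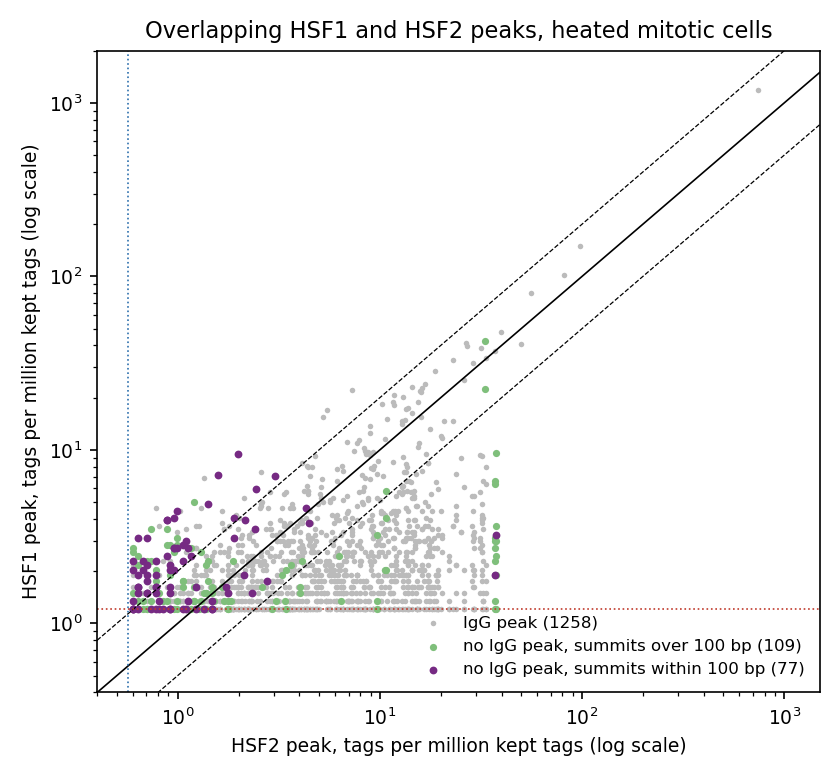
HSF1 against HSF2 level (CPM, log axes) for each overlapping pair in heated mitotic cells, coloured by IgG overlap and summit distance. The solid line marks equal levels, the dashed lines 2-fold, and the dotted lines the fewest CPM in each list (1.22 for HSF1, 0.565 for HSF2); close IgG-free pairs crowd the lower left corner, where the minima alone give a ratio of 2.16.

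Of the 77 close pairs, the one with the highest HSF1 level lay at a heat shock gene start, that of HSPD1 and HSPE1, while the highest HSF2 levels were those of long peaks on chromosome 22. From general knowledge of hg19, as no annotation of that build was used, 15 close IgG-free pairs were recognised at gene starts, and they were picked after their values were seen. At these 15 sites HSF1 ranged from 1.62 to 9.48 CPM with a median of 3.11, and HSF2 from 0.601 to 2.40 CPM with a median of 0.883. HSF1 was higher at all 15 and at least 2-fold higher at 14, with ratios of 1.47 to 4.90 (median 3.83) and a median summit distance of 46 bp. Only 3 of them, HSPD1 and HSPE1, HSP90AA1 and HSPA8, had an HSF2 level of at least 1.22 CPM.

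Among the 15 named sites HSF1 was highest at HSPD1 and HSPE1 and then at HSP90AA1. Close pairs outside the 15 reached 7.18 CPM of HSF1, so this order holds for the named sites only. The shared promoter of HSPD1 and HSPE1, which encode the mitochondrial chaperonin HSP60 and its co-chaperonin HSP10, carried 70 HSF1 tags, or 9.48 CPM (7.39 to 11.97), at chr2:198364221-198365408. HSF2 had 56 tags there, or 1.98 CPM (1.49 to 2.57). Their intervals did not overlap, the ratio was 4.79 (3.32 to 6.93), and the summits lay 87 bp apart. HSP90AA1 (chr14:102553110-102554101 for HSF1) had 4.87 CPM of HSF1 and 1.41 CPM of HSF2, a ratio of 3.45 (2.14 to 5.55) with summits 19 bp apart. HSPA8 (chr11:122932721-122933520 for HSF1), whose promoter is printed above with its pair of elements, had closer levels. It had 3.52 CPM of HSF1 (2.30 to 5.16) and 2.40 CPM of HSF2 (1.87 to 3.05). These intervals overlapped, as they also did at DNAJB1 and CCT7, and the HSPA8 ratio of 1.47 ran from 0.895 to 2.33. HSPH1, which encodes the HSP110 exchange factor of HSP70, had 4.06 and 0.954 CPM, and HSPA4, a relative of it, 2.03 and 0.671 CPM.

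The partners of HSP70 and HSP90 gave the same order with fewer tags. The J-domain proteins hand clients to HSP70: DNAJB1 had 2.44 CPM of HSF1 and 1.17 CPM of HSF2, and DNAJA1 2.30 and 0.601 CPM. BAG3, a nucleotide exchange factor and autophagy adaptor, had 2.44 and 0.883 CPM. ST13, the HSP70-interacting protein, had 4.47 and 0.989 CPM, a ratio of 4.52 (2.65 to 7.76). CHORDC1, a co-chaperone of HSP90, had 3.11 and 0.707 CPM. NUDC, also an HSP90 co-chaperone and active in cell division, and CACYBP, a calcyclin-binding protein, had equal values, 3.93 CPM from 29 HSF1 tags and 0.883 CPM from 25 HSF2 tags. SERPINH1, the collagen chaperone HSP47, had the highest ratio of the 15, 4.90 (2.53 to 9.63), from 23 and 18 tags. CCT7, a subunit of the cytosolic chaperonin TRiC, had 1.62 and 0.636 CPM, and SOD1, the copper-zinc superoxide dismutase, 2.71 and 0.989 CPM. At each of these genes apart from HSPD1 and HSPE1, HSP90AA1 and HSPA8 the HSF2 peak was under 1.22 CPM, so a ratio of 1 or lower could not have been recorded there.

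The inducible HSP70 genes had the highest levels among the heat shock genes named here but were set apart by IgG. HSPA1B (chr6:31794663-31796838 for HSF1) had 164 HSF1 tags, 22.2 CPM (18.9 to 25.9), and 205 HSF2 tags, 7.24 CPM (6.29 to 8.31), a ratio of 3.07 (2.48 to 3.78). IgG had 4.84 CPM there, so HSF1 stood 4.59 times above it and HSF2 1.50 times. HSPA1A (chr6:31782399-31784531 for HSF1) had 17.1 CPM of HSF1 and 5.48 CPM of HSF2, a ratio of 3.11 (2.44 to 3.97), with 4.62 CPM of IgG. At HSPA1A HSF1 stood at 3.70 times IgG and HSF2 at 1.19 times. Their summits were 12226 bp apart for HSF1 and 12174 bp for HSF2, and the gene starts are 12195 bp apart in RefSeq. The genes are nearly identical in sequence, so reads of one may be counted at the other, and their separate levels are uncertain.

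DNAJB6 and the start shared by MRPS6 and SLC5A3 were also set apart. DNAJB6 (chr7:157128950-157129980 for HSF1), printed above, had 7.45 CPM of HSF1, 2.58 of HSF2 and 1.28 of IgG, with HSF summits 3 bp apart. MRPS6, a mitochondrial ribosomal protein gene, and SLC5A3, the inositol transporter, had 6.91 CPM of HSF1 and 1.34 of HSF2 at chr21:35444762-35445742, a ratio of 5.14 (3.31 to 8.04), with 0.779 CPM of IgG. At both sites HSF1 exceeded IgG, by 5.82 and 8.87 times, and HSF2 by 2.02 and 1.72 times. All 4 sites set apart in this way had HSF2 levels of at least 1.22 CPM and ratios of 2.89 to 5.14. They were named for a deposited fold of at least 10, which DNAJB6 and the MRPS6 and SLC5A3 start reached in the HSF1 list only. A high ratio thus follows in part from the choice of sites. Over all 1258 pairs with IgG the median ratio was 0.433, with 277 pairs higher in HSF1 and 981 in HSF2.

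**Figure D4:**
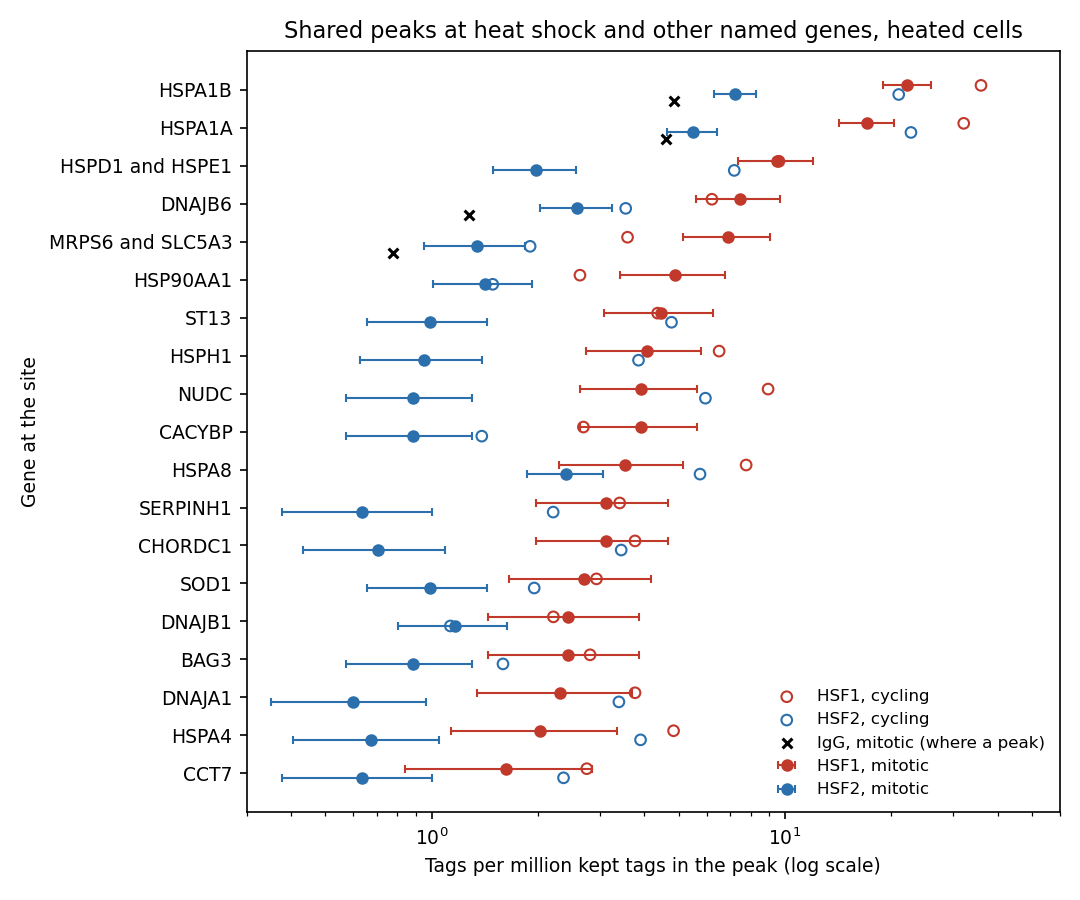
CPM (log scale) of HSF1 (red) and HSF2 (blue) at the 19 sites at named genes where both factors had a peak in heated mitotic cells (filled, with exact 95% Poisson intervals) and the level in heated cycling cells (open). Crosses give mitotic IgG where it had a peak. HSF1 lies right of HSF2 at every site, with overlapping intervals at HSPA8, DNAJB1 and CCT7. At all but 3 of the sites without IgG, HSF2 was under 1.22 CPM, the fewest in the HSF1 list, which fixed this order. The sites were picked after their values were seen or by a deposited fold of at least 10.

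Few peaks reached a deposited fold over input of 10, and HSPA1A and HSPA1B alone did so in both lists. They numbered 6 in the HSF1 list, namely HSPA1B, HSPA1A, the HSPD1 and HSPE1 start, the MRPS6 and SLC5A3 start, DNAJB6, and chr7:75923636-75924569 upstream of HSPB1, a small heat shock protein gene. The last had 7.18 CPM of HSF1 and 1.59 CPM of HSF2, a ratio of 4.51 (2.98 to 6.87). All 6 had an HSF2 peak. The HSF2 list held 10, and HSPA1B, HSPA1A and HSPA8 were among them. At chr16:89227304-89228441, HSF2 had 2.44 CPM and HSF1 5.96 CPM, with no IgG peak and summits 18 bp apart. At chr19:1354085-1354971 HSF2 had 1.66 CPM and HSF1 4.47 CPM, against 0.723 CPM of IgG. The next 3 were below IgG in HSF2: chr17:31149032-31150063 with 10.2 CPM of HSF2 against 25.4 of IgG, chr19:23253697-23254638 with 3.07 against 4.23, and chr7:155142324-155143607 with 2.58 against 3.67. Deposited folds are those of the authors and were not compared between lists, since 29.9% of the HSF1 peaks and 0% of the HSF2 peaks had one below 1.

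HSF2 had a strong peak without HSF1 at 2 of its 10 sites of highest fold. At the start of KMT2A, a histone methyltransferase gene, HSF2 had 52 tags, 1.84 CPM (1.37 to 2.41), with a deposited fold of 14.1 at chr11:118306567-118307317. IgG had 0.723 CPM there, so HSF2 was 2.54 times above it, and the HSF1 list had no peak. HSF2 had 1.90 CPM there in heated cycling cells and 2.98 CPM in non-treated mitotic cells. At chr1:221229070-221230129, HSF2 had 75 tags, 2.65 CPM (2.09 to 3.32), and the highest deposited fold of its list, 19. None of the other 11 lists had a peak at this position.

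The pairs of highest summed level looked unlike those at heat shock genes. The first 8 IgG-free pairs rested on 3 HSF2 peaks, each joined to several HSF1 peaks. At the end of chromosome 4 an HSF2 peak of 33.2 CPM (chr4:191007646-191014199) met HSF1 peaks of 42.7 and 22.3 CPM, with ratios of 1.28 and 0.673 and summits 3495 and 4078 bp apart. On chromosome 22 HSF2 peaks of 37.5 CPM (chr22:22031063-22046834) and 37.0 CPM (chr22:20780052-20797730) met 4 and 2 of the HSF1 peaks in this group. Those 6 HSF1 peaks had 2.98 to 9.61 CPM and ratios of 0.0794 to 0.256. The IgG list of heated mitotic cells had no peak at these places, but the IgG list of heated cycling cells had one at each, of 6.93 to 16.3 CPM. The lowest ratios of pairs with at least 20 tags in each peak, 0.0733 to 0.0806, also came from those chromosome 22 peaks, and the highest were HSPD1 and HSPE1, chr13:31191504-31192133 at 4.74, and ST13.

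The pairs set apart by IgG with most HSF1 were at places that nearly all lists shared. At chr1:564095-570473 HSF1 had 1186 CPM, HSF2 744 CPM and IgG 1161 CPM, and 11 of the 12 lists had a peak. At chr21:9825278-9827742 the values were 149, 97.9 and 224 CPM. At chr1:143276830-143284515 they were 102, 81.4 and 104 CPM, and at chr20:26188497-26190671 80.0, 56.2 and 110 CPM. At all 4 HSF1 exceeded HSF2 by 1.26 to 1.59 times and neither was above 1.02 times the IgG level.

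The lone peaks of most tags were broad and not at known heat shock genes. The 5 highest IgG-free HSF1 peaks without HSF2 had 59.0 to 93.2 CPM, led by chr9:133765165-133784914 with 688 tags, and had deposited folds of 0.95 to 1.69. A further pair lay at chr22:23593233-23608043 and chr22:23618582-23632871, within BCR, which K562 carries fused to ABL1 of chromosome 9 in many copies. The remaining ones were at chr9:133824447-133839035 and chr2:133013976-133017898. Chromosome 22 held 1142 of the 4982 HSF1 peaks (22.9%), 363 of the 8270 HSF2 peaks (4.39%) and 958 of the 41184 IgG peaks (2.33%). Without chromosomes 9 and 22 the share of IgG-free HSF1 peaks with an HSF2 partner was 9.14%, and the median ratio 1.82, both inside the intervals above. The 5 highest lone HSF2 peaks had 4.81 to 6.996 CPM, the first at chr22:19372501-19376664 with 198 tags, and the others at chr2:91784755-91787924, chr22:19377494-19380980, chr1:144528915-144532254 and chr1:142597581-142600483.

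Paired sites were more often occupied in heated cycling cells than lone ones, a readout that the pairing did not use. Of all 4982 HSF1 peaks 24.1% overlapped an HSF1 peak of heated cycling cells, 18.8% an HSF2 peak and 19.7% an IgG peak. For the 77 close IgG-free pairs the counts were 51 with HSF1 (66.2%, 55.1% to 75.8%), 52 with HSF2 (67.5%, 56.5% to 76.9%) and 6 with IgG (7.79%, 3.62% to 16.0%). For the 109 IgG-free pairs with summits over 100 bp apart the shares were 41.3%, 38.5% and 19.3%. The fall was not at 100 bp: the 35 pairs at 101 to 250 bp gave 65.7%, 65.7% and 8.57%, like the close pairs. The 48 pairs at 251 to 1000 bp gave 31.25%, 27.1% and 6.25%, and the 26 over 1000 bp 26.9%, 23.1% and 57.7%. Lone IgG-free HSF1 peaks gave 14.2%, 10.5% and 7.50%. Pairs with IgG gave 36.2%, 28.5% and 38.4%, and there cycling IgG was not rarer than cycling HSF1. Of all 8270 HSF2 peaks 9.24%, 7.61% and 7.16% overlapped the cycling HSF1, HSF2 and IgG lists, and of the lone IgG-free HSF2 peaks 3.00%, 2.47% and 0.822%. All 15 close sites at named genes had both an HSF1 and an HSF2 peak in heated cycling cells and 0 had a cycling IgG peak. These 15 are part of the 77 and were picked after their values were seen, so their count is not a separate readout.

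**Figure D5:**
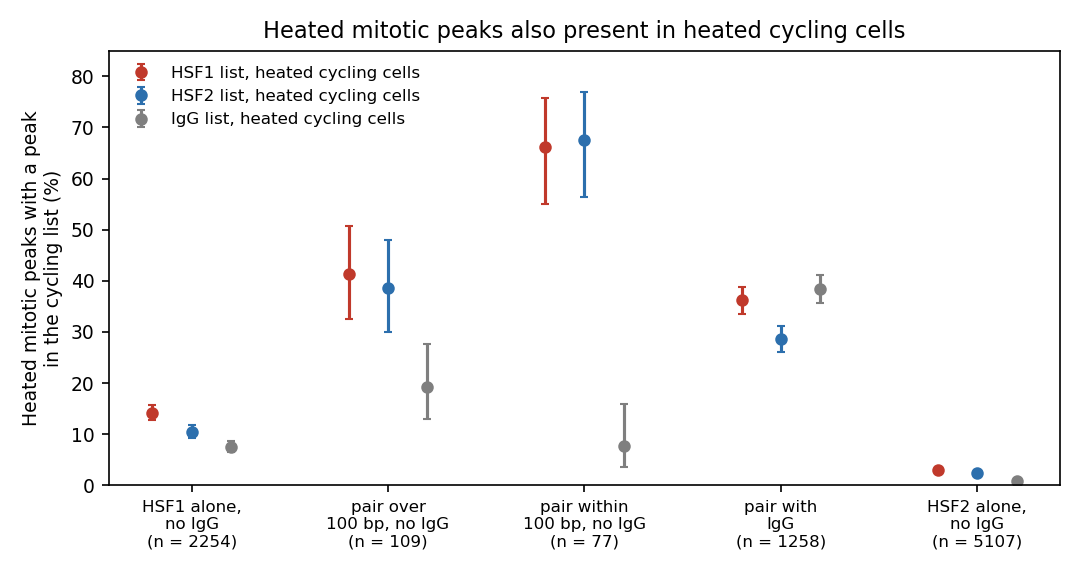
Share (%) of heated mitotic peaks that overlap an HSF1, HSF2 or IgG peak of heated cycling cells, with 95% Wilson intervals, by class of mitotic peak. Of the classes drawn, close IgG-free pairs stand highest for HSF1 (66.2%) and HSF2 (67.5%) with IgG at 7.79%. The class over 100 bp includes pairs at 101 to 250 bp, which gave 65.7% for both factors. For pairs with IgG the 3 lists lie between 28.5% and 38.4%.

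Level moved with this share: close pairs with a cycling HSF1 peak had a median of 2.30 CPM of HSF1 in mitosis. The 24 close pairs with neither cycling HSF peak had 1.35 CPM, and 22 of them held 9 to 15 HSF1 tags. The part of level in the share was not tested.

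At 50 close pairs both factors had a peak in both states, which allowed the levels to be set side by side. Mitotic HSF1 was 0.596 times its cycling level at the median and lower at 43 of the 50. Mitotic HSF2 was 0.287 times its cycling level and lower at 48. The ratio of HSF1 to HSF2 was therefore wider in mitosis, with a median of 2.44 against 1.32 in cycling cells and a larger value at 48 of the 50 sites. HSF1 was at least 2-fold higher at 38 sites in mitosis and at 2 in cycling cells. The minima of the lists differ in the same direction, with a ratio of 2.16 in mitosis and 1.08 in cycling cells, and libraries, IgG background and duplicate limits differ too, so state and library cannot be told apart. At sites outside these 50, HSPA1B had 35.9 CPM of HSF1 and 21 of HSF2 in cycling cells, and HSPA1A 32.1 and 22.7. Among the 50, HSPD1 and HSPE1 had 9.62 and 7.19 CPM in cycling cells, against 9.48 and 1.98 CPM in mitosis. HSP90AA1 had 2.63 CPM of HSF1 and 1.49 of HSF2 in cycling cells, where its mitotic intervals were 3.41 to 6.75 and 1.01 to 1.93 CPM.

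Before heat, HSF2 was on record at part of these sites. Of the 77 close pairs 29 overlapped an HSF2 peak of non-treated mitotic cells (37.7%, 27.7% to 48.8%) and 8 an HSF1 peak (10.4%, 5.36% to 19.2%), where all HSF1 peaks gave 41.6% and 32.1%. The latter shares include HSF1 peaks with IgG, which gave 66.9% and 47.9%. For the 2504 IgG-free HSF1 peaks the share was 16.5% with either list. The close pairs lay above this for HSF2, while their HSF1 interval included it. Close pairs were chosen for having an HSF2 peak, which most of the 2504 lacked. The 250 of them with an HSF2 partner gave 38.8% for HSF2 (32.97% to 44.97%), no lower than the close pairs. IgG-free pairs over 100 bp apart gave 31.2% (23.3% to 40.4%). By distance this was 22.9% at 101 to 250 bp, 18.75% at 251 to 1000 bp and 65.4% over 1000 bp. Whether the excess belongs to close summits was not tested. Pairs with IgG overlapped the HSF2 and HSF1 peaks of non-treated mitotic cells in 80.6% and 55.3%. HSPA8 had 2.43 CPM of HSF1 and 2.57 CPM of HSF2 without heat, and HSPD1 and HSPE1 1.95 and 1.89 CPM. HSPH1, NUDC, SERPINH1, CHORDC1, BAG3, DNAJB1, HSPA4 and CCT7 had neither peak without heat, and both with it. The non-treated lists began at 1.30 CPM for HSF1 and 0.812 CPM for HSF2. The heated HSF2 levels of SERPINH1, CHORDC1, HSPA4 and CCT7 were below the latter, so an equal level without heat would not have been listed.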

How the data were processed

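HSF1, HSF2 and IgG were immunoprecipitated from mitosis-arrested K562 cells heated for 30 min at 42 °C, 1 library each. Per the submitters' processing notes, Bowtie, hg19 and MACS 1.4 were used for alignment and peak calling; the headers name MACS 1.4.1 and, for 5 cycling lists, bwa. Kept tags were 7385467 (HSF1), 28299989 (HSF2) and 17981369 (IgG), with at most 1, 2 and 2 duplicates per position, per the file headers. The deposited lists give, per peak, tag counts, a score (minus 10 times log10 of p), a fold over input and an FDR in percent, all as the authors' peak caller wrote them; per the file headers the smaller dataset was scaled to the larger. Whole peaks were compared by 1 bp overlap, nearest summit and tags per 1000000 kept tags (CPM), in Python 3.11.15 with scipy 1.17.1. Shares have Wilson intervals, levels exact Poisson intervals, ratios exact conditional intervals and medians order-statistic intervals, all at 95%; with 1 library a group no test was made. Overlaps were the same as those of bedtools 2.31.1 for all 22 pairs of lists, and simulated lists were recovered (1200 of 1200 planted peaks).

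Sites were named by rank: the 8 IgG-free pairs of highest summed level, the 5 highest lone peaks of each factor, the 4 highest pairs with IgG, the 3 highest and 3 lowest ratios with at least 20 tags in each peak, and each peak of fold at least 10; all close IgG-free pairs were added after their values were seen. The members and lists were chosen with earlier results of these data known. A count of heat shock genes over an hg19 annotation and motifs under peaks were not analysed here.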

Additional observations from a re-analysis of the deposited data

How the results depend on the processing

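Settings were changed one at a time for 6 values; the settings with HSF2 of at least 1.22 CPM, without chromosomes 9 and 22, with each HSF2 peak once and with HSF2 peaks of at most 5 kb were chosen after seeing the data. With 50% reciprocal overlap the shares of IgG-free HSF1 and HSF2 peaks with a partner were 4.79% and 2.24%, the median distance 80.0 bp, the ratio 2.11 and the share with cycling HSF1 68.4%; with summits within 100 bp they were 3.27%, 1.48%, 44 bp, 2.11 and 66.2%, all following from the narrower rule. An FDR of at most 5% gave 5.98%, 2.40%, 105 bp and 1.92. A score of at least 100 gave 3.14%, 15.5%, a ratio of 1.26 and 63.2%, by leaving few HSF2 peaks. The HSF2 list shortened to 4982 peaks gave 8.23% and 4.44%. With no peak set apart the values were 29.0%, 11.9%, 504 bp, 0.518 and 38.2%; the ratio was below 1, but 1.59 per kb of peak. With all 4 IgG lists they were 2.64% of HSF2 peaks, 107 bp, 2.03 and 61.5%. Per kb the ratio was 1.98 and with total tags 1.28. HSF1 peaks set apart fell to 17.1% by 50% reciprocal overlap and 12.4% by IgG summits. Pairs with HSF2 of at least 1.22 CPM gave 389 bp, a ratio of 0.690 (1.68 per kb) and 35.4%. Without chromosomes 9 and 22, 43.1% of HSF1 peaks were set apart. Beyond the construction of each setting, the cause was not tested. Neither each HSF2 peak counted once nor HSF2 peaks of at most 5 kb moved a value beyond its interval.

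No paired analysis was possible because each group has 1 library, and no library could be left out. Depth limits the lists: HSF1 peaks begin at 9 tags and HSF2 peaks at 16, a site missing from a list may still hold tags, and the intervals leave out variation between cultures.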
